A study of Homo sapiens with 8 samples.

Results

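The 8 RNA-seq libraries of the human beta-cell line EndoC-βH5 fell into 2 series by the start of their column names, and the gene expression of these series was compared. The first series, called series 21, holds the columns that begin with 01-21 and 02-21, and series 22 holds those that begin with 07-22 and 14-22, so that 4 of the 8 libraries belong to each. Every prefix has 1 untreated control library and 1 library from cells given a mixture of 3 cytokines for 48 h, with IFNγ and TNFα at 1000 U/mL each and IL-1β at 50 U/mL. The control and the cytokine library of 1 prefix are called a culture here, A (01-21) and B (02-21) in series 21, C (07-22) and D (14-22) in series 22. What the numbers 21 and 22 stand for is not given in the sources used here. The submitters' labels give the treatment but not the series. All libraries come from 1 cell line, and nothing states how the 4 cultures differ. With 2 cultures in a series, the p-values do not rest on each gene's own spread between these cultures alone. Part of that spread was taken from other genes of like level, and in the test of the cytokine change this part was large. The standard errors (SE) given after ± therefore do not measure a gene's own spread between cultures. Series cannot be told apart from anything else that changed between them. The comparison asks which genes differed in level between the series in both treatments, and which genes changed by a different amount with cytokines.

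EndoC-βH5 cells are derived from human fetal pancreas and were made as a non-proliferating model of the beta cell, the pancreatic islet cell that makes insulin. Beta cells store insulin in secretory granules, where it is cut from its precursor by prohormone convertases and carboxypeptidase E. The neighbouring islet cells make glucagon (alpha cells) and somatostatin (delta cells). The 3 cytokines are products of immune cells in inflamed islets. IFNγ acts mainly through JAK kinases, STAT proteins and IRF1, which switch on interferon-stimulated genes such as guanylate-binding proteins, HLA class I genes and the chemokines CXCL9 and CXCL10. IL-1β and TNFα act mainly through NF-κB, which also switches on its own inhibitors, NFKBIA and TNFAIP3.

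The beta-cell identity of the libraries was checked on 7 markers. All 7 were listed in every library, with INS between 1158 and 2905 CPM (read counts scaled to a common library total) and PDX1 between 208 and 419 CPM. Alpha-cell and delta-cell markers were listed too. Of 6 endothelial and immune markers none was listed, and of 5 mesenchymal markers 2 were, at no more than 6.30 CPM. The reads on listed genes ranged from 36577438 to 40117636 per library. Reads outside the listed genes took 20.1% to 21.01% of the total in cultures A, B and C, and 26.6% (control) and 26.5% (cytokines) in culture D. Mitochondrially encoded genes took 18.7% and 18.3% of the listed reads in the control libraries of A and B, 7.39% in C and 11.5% in D, and with cytokines 13.6%, 13.8%, 5.24% and 8.34% in the same order. No library was a copy of another. Between libraries of 1 treatment, the chi-square statistic divided by the number of genes was 13.3 (control) and 5.90 (cytokines) for A against B. It was 66.9 and 84.7 for C against D, and 101 to 296 across the series, so A and B were the closest pair in both treatments.

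Treatment was the largest source of variation and series the next. Over the 14683 genes that averaged 1 CPM or more, treatment took 68.4% of the sum of squares of log2(CPM + 0.1), series 18.1%, their interaction 2.34% and the rest 11.2%. The first principal component separated control from cytokine libraries and the second separated the series, with A and B on one side and C and D on the other in both treatments. Cultures C and D lay further apart on the second component than A and B did with cytokines.

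**Figure D1:**
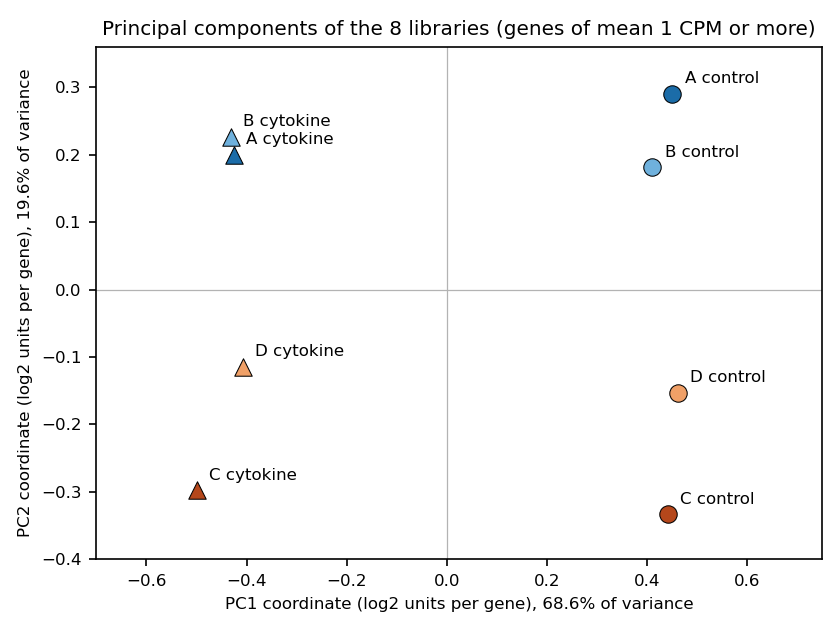
Principal components of the 8 libraries over the 14683 genes that averaged 1 CPM or more, as coordinates in log2 units per gene on PC1 (x axis, 68.6% of the variance) and PC2 (y axis, 19.6%). Circles are control and triangles cytokine libraries, blue is series 21 (A, B) and orange series 22 (C, D); each series lies on its own side of 0 on PC2.

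With treatment as covariate and culture as a random block, 2878 of 16525 genes (17.4%) differed between the series at a false discovery rate (FDR) below 0.05 and an absolute log2 difference above 0.5, the thresholds behind "called" throughout. Of these, 875 (5.3% of all genes) were higher and 2003 (12.1%) lower in series 21. In 20.2% of all genes the libraries of the series did not overlap, with series 21 on top in 5.78% and below in 14.4%. The direction of the calls depended on the scaling. In the deposited CPM the median difference of all genes, series 21 minus series 22, was -0.12 on the log2 scale. Under TMM scaling, which evens the bulk of the genes, it was -0.02, and 1235 genes were then called higher and 1137 lower in series 21. All levels below are in deposited CPM, and all series differences are series 21 minus series 22 on the log2(CPM + 0.1) scale.

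The hormone genes SST and GCG were called in opposite directions. SST, the gene of somatostatin (chromosome 3, 187668906 to 187670399, minus strand), stood at 1761 and 2143 CPM in control A and B against 615 and 355 CPM in C and D, and with cytokines at 1764 and 1980.1 against 653 and 468 CPM. Every library of series 21 lay above every library of series 22, by 1.91 ± 0.18 (SE) on the log2 scale (limma, adjusted p = 1.31e-05). HHEX, a transcription factor of delta cells, was also called higher, at 9.69 to 15.2 CPM in series 21 and 4.78 to 7.95 CPM in series 22 (0.91 ± 0.19, limma, adjusted p = 0.00338). LEPR, the third delta-cell marker, was not called (difference -0.27).

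GCG, the gene of glucagon (chromosome 2, 162142873 to 162152404, minus strand), went the other way. It stood at 19.8 and 27.2 CPM in control A and B against 222 and 104 CPM in C and D, and with cytokines at 6.47 and 9.80 against 40.7 and 81.1 CPM. All 4 libraries of series 21 were lower than those of series 22, by -2.77 ± 0.30 (limma, adjusted p = 4.63e-05). The alpha-cell markers IRX2 and TTR were not called (differences -0.07 and -0.30). PYY, a peptide hormone of several islet cell types, was lower in series 21 by -0.97 ± 0.18, at 74.5 to 89.4 CPM against 114 to 223 CPM.

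Genes of the insulin granule moved in both directions. INS was called higher in series 21 by 0.59 ± 0.20 (limma, adjusted p = 0.0388), at 2478 and 2905 CPM in control A and B against 2134 and 1158 CPM in C and D. Its cytokine values were 2172 and 2028 against 1740.4 and 1445 CPM, so that the series did not overlap within a treatment but did across treatments. Its call was lost when either library of A, the control library of B or that of D was left out, and when GC content was evened. It was also lost on the culture means, with both libraries of a culture averaged (limma, adjusted p = 0.151) and without the intensity trend. Of its 776 exon bases 246 are shared with another gene of the same strand. UCN3, a peptide stored with insulin in mature beta cells, was higher by 0.97 ± 0.14, at 449.7 to 515 CPM against 201 to 344 CPM. The processing enzymes were lower. PCSK1, a prohormone convertase, stood at 290.1 and 299 CPM in control A and B against 741 and 466 CPM in C and D, and with cytokines at 390.0 and 359 against 1072 and 635 CPM (difference -1.07 ± 0.17, limma, adjusted p = 0.000465). CPE, the carboxypeptidase, was lower by -0.97 ± 0.16, CHGB, a granule protein, by -0.95 ± 0.16, and IAPP, the amyloid peptide released with insulin, by -0.87 ± 0.21, the last losing its call in DESeq2, with GC content evened and on the culture means (limma, adjusted p = 0.149). CHGA and PTPRN, granule proteins too, were not called (-0.36 ± 0.27 and 0.04 ± 0.14). Of 30 listed genes for insulin processing and secretion, 3 were called higher and 5 lower (against 5.3% and 12.1% of all genes). Their median difference was -0.07 against -0.12 over all genes.

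Of 20 listed beta-cell transcription factors, 2 were called higher, MLXIPL among them, and 1 lower, ISL1. This lies near the share over all genes (5.3% higher and 12.1% lower). Under TMM scaling 4 were called higher and none lower, so that the counts of this list depended on the scaling. MLXIPL, a glucose-responsive factor, stood at 1158 and 1028 CPM in control A and B against 514 and 615 CPM in C and D, and with cytokines at 641 and 749 against 329 and 443 CPM (0.91 ± 0.13, limma, adjusted p = 0.000336). ISL1 was lower by -0.57 ± 0.11, a call that TMM scaling, edgeR and DESeq2 did not make. For PDX1 the difference was 0.02 ± 0.10, for NKX6-1 0.15 ± 0.14 and for PAX6 0.46 ± 0.12. MAFA differed by -0.48 and was not called. DLK1, an imprinted gene expressed in endocrine cells, was lower in series 21, at 27.7 to 35.4 CPM in series 21 and 85.2 to 143 CPM in series 22 (-1.86 ± 0.16, limma, adjusted p = 6.47e-06). Its imprinted neighbour MEG3 was not called (0.47 ± 0.19).

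**Figure D2:**
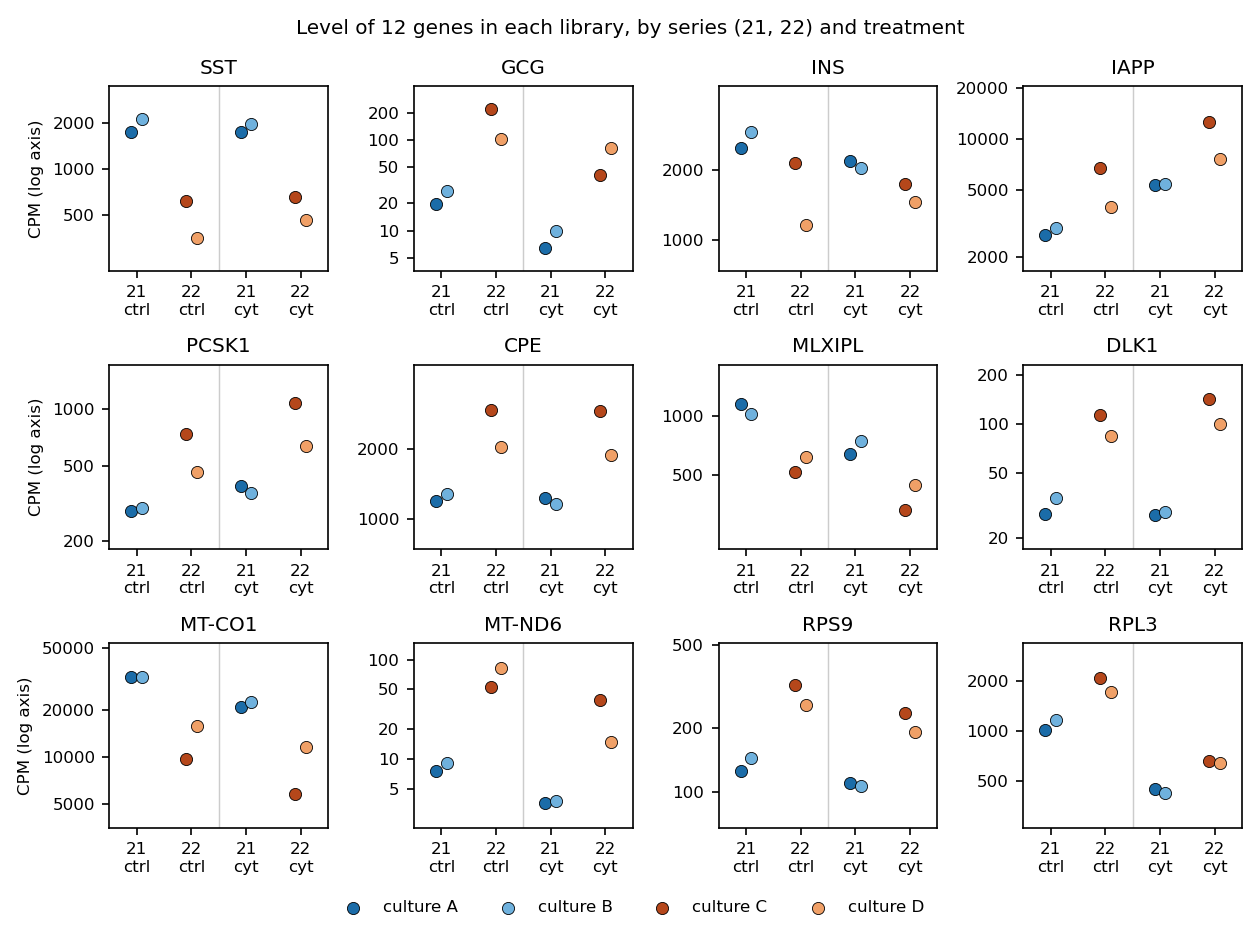
CPM (log axis, a separate scale in each panel) of 12 genes in each library, with the series (21, 22) and the treatment (ctrl, control; cyt, cytokines) on the x axis and 1 point per culture. SST and MT-CO1 lie higher in both cultures of series 21 and GCG, DLK1, MT-ND6 and RPS9 lower, in each treatment, while those of INS overlap across treatments.

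Markers of cells other than islet endocrine cells moved in both directions. KRT19, a keratin of duct cells, was lower in series 21 (79.5 to 85.4 against 96.6 to 163 CPM, difference -0.60 ± 0.16, not called under TMM scaling nor on the culture means), and MUC1, a mucin of epithelia, was higher (5.73 to 9.06 against 2.45 to 5.04 CPM, 1.02 ± 0.23). These were the 2 genes called among 4 listed exocrine and duct genes. Of 13 listed neuronal genes 1 was called higher and 4 lower (against 5.3% and 12.1% of all genes), which became 3 higher and 2 lower with GC content evened, and of 7 mesenchymal genes none was called. In bulk libraries, fewer cells of a type and less RNA per cell cannot be told apart.

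Genes of the respiratory chain differed for the most part by the genome that encodes them, with exceptions in both groups. Of 13 mitochondrially encoded genes, 12 were called higher in series 21 and 1 lower, with a median difference of 1.22. MT-CO1, a subunit of cytochrome c oxidase, stood at 32760.0 and 32545 CPM in control A and B against 9709 and 15752 CPM in C and D, and with cytokines at 21012 and 22508 against 5803 and 11692 CPM (1.401 ± 0.28, limma, adjusted p = 0.0022). On the culture means it was not called (limma, adjusted p = 0.142), nor were MT-CO2 and MT-ND4. MT-ND4L, a small complex I subunit (chromosome M, 10470 to 10766, plus strand), showed the largest positive difference of the 13 (2.34 ± 0.19). The exception was MT-ND6 (chromosome M, 14149 to 14673), the only one of these genes on the minus strand. It stood at 7.59 and 9.14 CPM in control A and B against 53.4 and 83.1 CPM in C and D, and with cytokines at 3.58 and 3.78 against 39.4 and 14.8 CPM (-2.83 ± 0.31, limma, adjusted p = 4.05e-05). The sequencing was stranded and the counting ran at default settings per the methods, which do not name the strand option.

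Of 34 genes of oxidative phosphorylation encoded in the nucleus, 4 were called higher and 18 lower (against 5.3% and 12.1% of all genes), with a median of -0.51. COX7C, another subunit of cytochrome c oxidase, stood at 24.1 to 29.5 CPM in series 21 and 54.1 to 74.6 CPM in series 22 (-1.26 ± 0.13). SDHC, a complex II subunit, was lower by -1.21 ± 0.13 and ATP5F1A, of ATP synthase, by -0.69 ± 0.11, while ATP5F1B was not called (-0.28 ± 0.12). Ribosomal protein genes showed the same direction, with 27 of 48 called lower, none higher, and a median of -0.56. RPS9 stood at 126 and 145 CPM in control A and B against 320.2 and 258 CPM in C and D, and with cytokines at 110.2 and 106.9 against 237 and 192 CPM (-1.03 ± 0.11, limma, adjusted p = 4.63e-05). RPL3 was lower by -0.68 ± 0.13, whereas RPLP0 was not called (-0.16 ± 0.11). Under TMM scaling 20 of the 48 ribosomal protein genes and 14 of the 34 nuclear genes were called lower, with medians of -0.45 and -0.41.

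**Figure D3:**
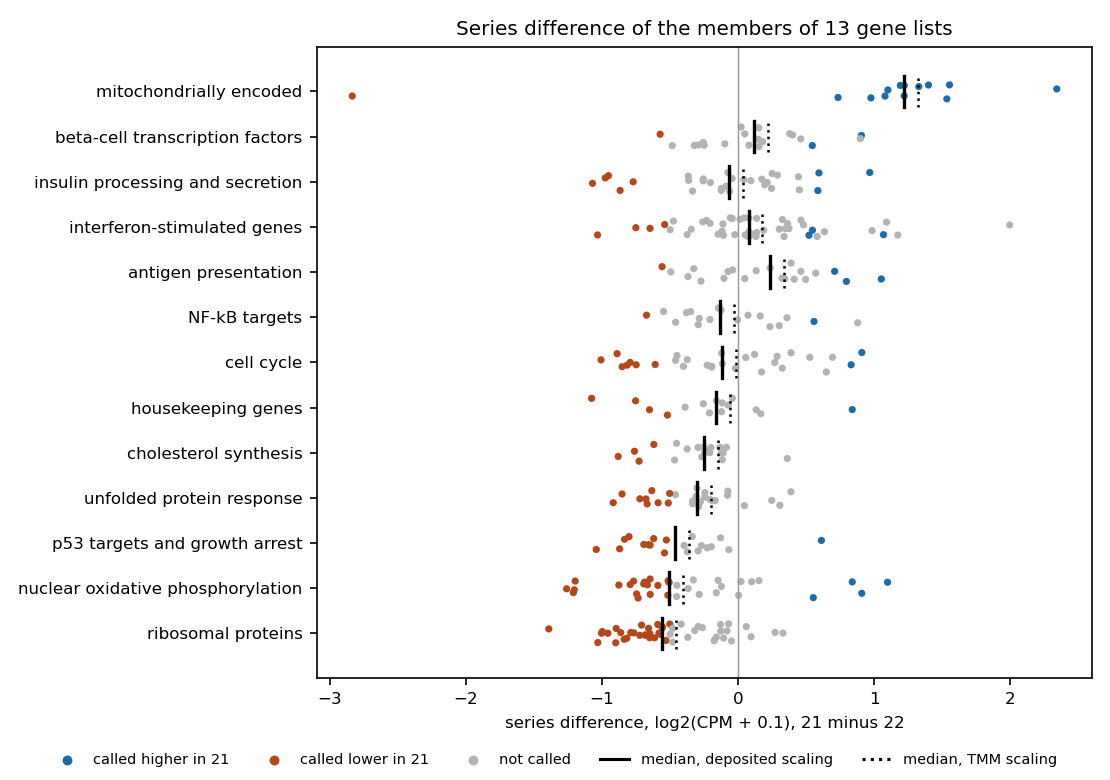
Series difference (x axis, log2(CPM + 0.1), series 21 minus series 22) of the members of 13 gene lists, 1 point per gene, coloured by call. The solid bar is the median in deposited CPM and the dotted bar the median under TMM scaling; 12 of 13 mitochondrially encoded genes lie to the right of 0, and the ribosomal proteins have the lowest median by either bar.

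Of 28 genes of the unfolded protein response, 9 were called lower in series 21 and none higher, where 12.1% of all genes, and 69.6% of all called genes, were lower. The lower calls were 6 under TMM scaling and 4 with GC content evened, which ended the call of HSPA5. HSPA5, the main chaperone of the endoplasmic reticulum, stood at 234 and 273 CPM in control A and B against 473 and 353 CPM in C and D, and with cytokines at 422 and 383 against 698 and 511 CPM (-0.63 ± 0.13, limma, adjusted p = 0.00342). DNAJB9 and SDF2L1, which work with it, were lower by -0.85 ± 0.15 and -0.92 ± 0.19. Of 20 p53 targets and growth arrest genes, 10 were called lower and 1 higher, with 7 lower both under TMM scaling and with GC content evened, which ended the call of MDM2. CDKN1A, an inhibitor of cyclin-dependent kinases, was lower by -0.64 ± 0.13, MDM2, which degrades p53, by -0.66 ± 0.12, RRM2B, a ribonucleotide reductase subunit, by -0.87 ± 0.13 and TNFRSF10B, a death receptor, by -1.04 ± 0.23. Of 29 cell cycle genes 7 were called lower and 2 higher (the same counts under TMM scaling, 6 and 1 with GC content evened). PCNA and MCM2, of the DNA replication machinery, were lower by -0.85 ± 0.11 and -0.61 ± 0.11, and CCNE2, a cyclin of S phase entry, by -1.01 ± 0.26. PLK1 and FOXM1, a kinase and a transcription factor of mitosis, were higher by 0.91 ± 0.24 and 0.83 ± 0.27, but FOXM1 lost its call without any of 5 libraries. On the culture means CCNE2, PLK1 and FOXM1 were not called, PLK1 was not called without the intensity trend, and CCNE2 and FOXM1 were not called with GC content evened. Among the controls, culture C held the lowest levels of PLK1 and FOXM1 (8.64 and 17.6 CPM). Culture D with 20.7 and 39.2 CPM was close to A and B (25.9 and 39.5 in A, 23.8 and 37.6 in B). GAPDH and ACTB, used as housekeeping genes, were not called (-0.11 ± 0.14 and -0.12 ± 0.13).

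Many of the largest differences lay in genes that share sequence with others, for which the assignment of reads is uncertain. The 10 largest positive differences included MT-TI, a mitochondrial tRNA (4.11 ± 0.29, 5.46 to 6.94 against 0.176 to 0.502 CPM), and MTATP6P1, a nuclear pseudogene of mitochondrial origin (2.77 ± 0.15, 1184 to 1851 against 146 to 275 CPM). All 7 listed pseudogenes of mitochondrial genes were called higher. So were 10 of 12 members of the NPIP family, a multigene family on chromosome 16, with a median of 1.53. NPIPP1 stood at 24.9 to 42.2 CPM in series 21 and 4.44 to 9.08 CPM in series 22. The largest negative differences included RPL7AP6 (-3.61 ± 0.29, 0.426 to 1.71 against 9.72 to 21.98 CPM), RPL15P3 (-2.41 ± 0.29) and RPS3AP6 (-2.26 ± 0.31), pseudogenes of ribosomal proteins. Of 32 such pseudogenes 12 were called lower and 1 higher (against 12.1% and 5.3% of all genes), with a median of -0.51. In both groups most calls went in the direction of the gene list that the pseudogenes resemble. No pseudogene was compared with its own gene of origin, and the assignment of the reads was not tested.

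The series difference also moved with the GC content of the gene. In the fifth of genes with the lowest GC content (28.6% to 41.1%) the median difference was -0.33, with 23.8% called lower and 1.10% higher. In the fifth with the highest (58.5% to 74.5%) it was 0.11, with 4.04% called lower and 13.01% higher. Split by transcript length in the same way, the genes ranged only from -0.15 to -0.11 in their medians. With GC content evened, an alternative chosen after seeing the data, 905 genes were called higher and 821 lower. Of the 2878 genes, 1363 were called in the same direction in both. The median was then 1.36 for mitochondrially encoded genes (12 higher, 1 lower), -0.39 for ribosomal protein genes (1 higher, 20 lower) and -0.38 for nuclear oxidative phosphorylation (3 higher, 13 lower). SST (1.95) and GCG (-2.44) kept their differences. ATP5F1A, HSPA5 and MDM2 lost their calls. With CPM taken over nuclear genes only, also chosen after seeing the data, 1028 genes were called higher and 1316 lower, with a median of -0.052. The part of the unlisted reads of culture D was not tested.

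Without cytokines, 3033 genes (18.4%) differed between the series, 707 (4.28%) higher and 2326 (14.1%) lower in series 21. With cytokines 1494 (9.04%) did, 577 (3.49%) higher and 917 (5.55%) lower. These counts rest on few libraries. Without the control library of A the control count was 68, and without that of C 1081. Without the cytokine library of A the cytokine count was 24, without that of B 11, without that of C 536 and without that of D 3070, and it was 870 and 868 without the control library of A or B.

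The cytokine change was then compared gene by gene. Over the 14683 genes the change in series 21 and in series 22 correlated across genes with a Pearson r of 0.94, the 2 series sharing no library. Genes within a library are not independent replicates. The median change was -0.10 in series 21 and -0.22 in series 22, and the median of their difference 0.11 (-0.00084 under TMM scaling). Over both series 766 genes rose by over 1 on the log2 scale (limma, FDR below 0.05). The absolute change was larger in series 22 in 320 of them (41.8%). Their median difference was 0.076 in deposited CPM and -0.037 under TMM scaling. Of the 74 genes that rose by over 5, the absolute change was larger in series 22 in 51 (68.9%). In these 74 genes the changes also spread more in series 22 (SD 1.78) than in series 21 (SD 0.98).

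The difference of the cytokine change itself was tested on the 4 within-culture changes, and 92 genes (0.627%) were called. The change was larger in series 21 in 36 genes (0.245%) and smaller in 56 (0.381%). The 92 genes were called on these same 4 changes. That the changes of one series both lay above those of the other in all 92 is thus no separate support. Without the intensity trend, which takes a gene's spread partly from genes of like level, 1 gene was called, GBP1, and without culture as a block 5. edgeR called 96 genes and DESeq2 55. Of the 56 genes with a smaller change in series 21, edgeR called 54 and DESeq2 41 in the same direction. Of the 36 with a larger change edgeR called 10, DESeq2 4, and 8 were called under TMM scaling, in which 67 genes had a smaller change. Without culture B 608 genes were called, without D 373, without C 45 and without A 114.

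**Figure D4:**
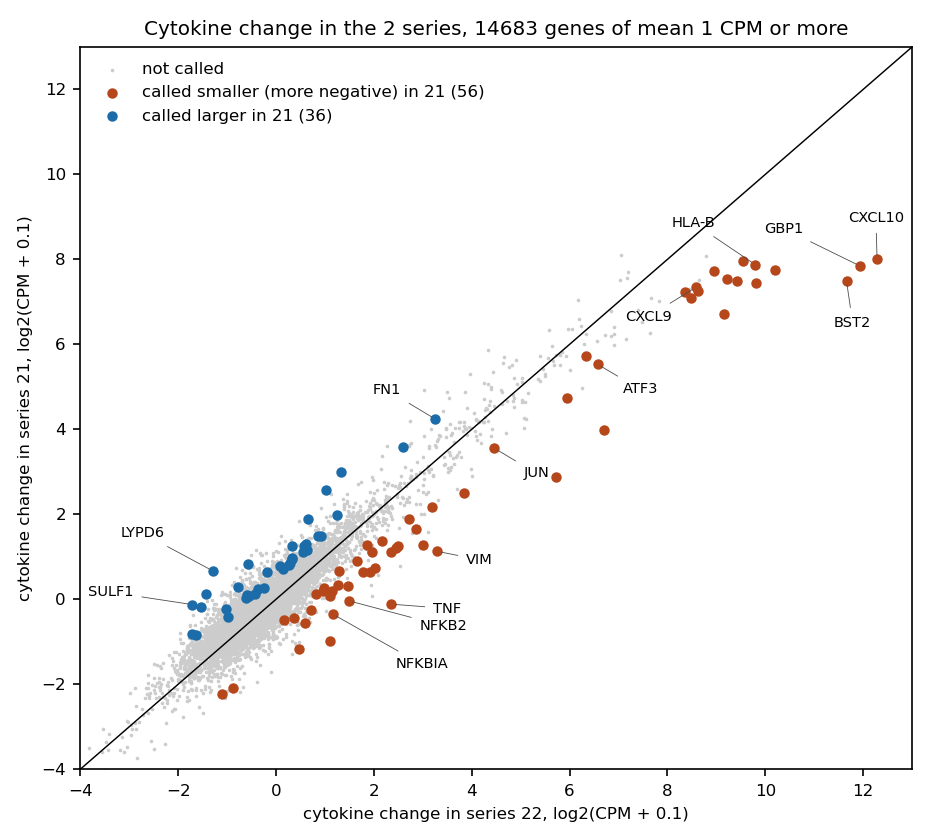
Cytokine change in series 22 (x axis) and in series 21 (y axis), as mean within-culture difference of log2(CPM + 0.1), for 14683 genes. The line marks equal change; CXCL10, GBP1 and BST2 lie at the upper right below the line, NFKB2, NFKBIA and TNF at or just below 0 on the y axis and above 1 on the x axis.

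Of the 56 genes with a smaller change in series 21, 31 belong to 5 of the lists used here, namely interferon-stimulated genes (7 of 45 tested), antigen presentation (5 of 21), chemokines (6 of 9), NF-κB targets (6 of 18) and immediate early genes (7 of 22). These lists hold genes that cytokines are known to move. None of their members was called with a larger change in series 21. Over all genes tested, 0.381% were called with a smaller change. The interferon-stimulated list as a whole changed by a median of 4.66 in series 21 and 4.62 in series 22. Its median difference was 0.09, against 0.11 over all genes. For the other lists, in the order given, it was -0.23, -1.24, -0.47 and -0.48. In 29 of the 56 genes the control level was called higher in series 21 (4.28% of all genes), and in none lower (14.1%). In 21 the cytokine level was called lower in series 21 (5.55% of all genes), in 1 (CXCL9) higher (3.49%). The change is the cytokine minus the control level, so these directions follow in part from how the 56 genes were chosen. Both a higher control and a lower cytokine level were called for 3 genes, BST2, NFKBIA and TNF.

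The sequences just before the start of 4 of these genes are shown because they hold the known binding motifs of the pathways concerned. They are the 250 bases upstream of the start in RefSeq (GRCh38.p14), all read from the minus strand, with matches in capitals. The core of the interferon-stimulated response element (GAAA, any 2 bases, GAAA) and the κB motif of NF-κB were searched on both strands. The windows are chr4:76023498-76023747 (CXCL10), chr1:89065209-89065458 (GBP1), chr19:17405631-17405880 (BST2) and chr14:35404750-35404999 (NFKBIA).
CXCL10: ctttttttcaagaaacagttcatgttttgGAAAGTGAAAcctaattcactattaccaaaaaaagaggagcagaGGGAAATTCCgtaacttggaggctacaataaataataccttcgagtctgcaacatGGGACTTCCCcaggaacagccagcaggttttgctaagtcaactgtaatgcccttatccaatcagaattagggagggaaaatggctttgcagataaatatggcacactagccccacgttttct
GBP1: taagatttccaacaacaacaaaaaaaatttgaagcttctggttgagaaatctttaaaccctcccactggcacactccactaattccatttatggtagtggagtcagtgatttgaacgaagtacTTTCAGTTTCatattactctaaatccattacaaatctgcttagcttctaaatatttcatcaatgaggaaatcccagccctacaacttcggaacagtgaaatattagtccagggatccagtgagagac
BST2: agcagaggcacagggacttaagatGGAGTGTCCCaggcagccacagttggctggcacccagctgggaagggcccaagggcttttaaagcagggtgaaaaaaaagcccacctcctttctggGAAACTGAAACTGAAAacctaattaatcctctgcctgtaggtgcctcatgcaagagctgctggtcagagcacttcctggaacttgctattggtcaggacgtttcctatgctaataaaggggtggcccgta
NFKBIA: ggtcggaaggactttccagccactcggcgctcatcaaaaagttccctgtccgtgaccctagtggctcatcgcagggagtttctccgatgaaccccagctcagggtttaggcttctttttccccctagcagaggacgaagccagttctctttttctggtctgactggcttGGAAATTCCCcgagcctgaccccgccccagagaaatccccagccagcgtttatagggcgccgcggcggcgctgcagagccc
CXCL10 held 1 response element and 2 κB matches, GBP1 1 response element, BST2 2 overlapping response elements and 1 κB match, and NFKBIA 1 κB match. Of the 56 genes, 43 had a promoter entry, and 17 of these (39.5%) held a κB match, 7 (16.3%) a response element and 8 (18.6%) the STAT motif TTCNNNGAA. Among all 27305 genes with an entry the shares were 11.8%, 3.71% and 8.09%, and among the 10938 with a mean of at least 1 CPM 15.7%, 3.31% and 7.33%. In the 27 genes with an entry among the 36 with a larger change, they were 18.5%, 7.41% and 11.1%. Of the 56 genes, 54 rose with cytokines in series 22, and cytokine-induced genes were not taken as a baseline. The shares therefore cannot tell whether the motifs bear on the difference between the series. A match describes the sequence and is not evidence of binding.

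Of 47 listed interferon-stimulated genes, 8 were called higher and 4 lower in the control libraries of series 21. Over all genes the shares were 4.28% higher and 14.1% lower. The median control difference of the list was 0.06, against -0.18 over all genes. CXCL10, a chemokine that attracts T cells (chromosome 4, 76021117 to 76023497), stood at 1.005 and 1.55 CPM in control A and B, from 47 and 73 reads, against 0.0398 and 0 CPM in C and D, from 2 and 0 reads. With cytokines it stood at 344 and 346 against 459 and 759.7 CPM. The control libraries did not overlap (limma, 3.51 ± 0.26, adjusted p = 0.000102), and the cytokine level was not called (-0.77 ± 0.26, adjusted p = 0.0801). The change was 8.28 and 7.72 in A and B against 11.68 and 12.89 in C and D, a difference of -4.29 ± 0.24 (limma, adjusted p = 5.21e-18).

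GBP1, a guanylate-binding protein of cell-autonomous defence, stood at 1.67 and 2.48 CPM in control A and B (78 and 117 reads) against 0.0199 and 0.0391 CPM in C and D (1 and 2 reads). With cytokines all 4 cultures lay close together, at 480.4 and 499 against 478 and 539.7 CPM. Its control level was called (limma, 4.05 ± 0.19, adjusted p = 2.5e-06), its cytokine level was not (-0.05 ± 0.19), and its change differed by -4.10 ± 0.19. BST2, a membrane protein that tethers viruses, stood at 1.05 and 1.48 CPM in control A and B against 0.0398 and 0.0587 CPM in C and D. With cytokines it was lower in series 21, at 243 and 241 against 560.0 and 415 CPM (limma, -0.99 ± 0.20, adjusted p = 0.0152), and its change differed by -4.17 ± 0.21. GBP2, GBP3, GBP5 and IFIT3 were called too, with differences of -2.45, -2.44, -1.69 and -2.36, but none of these 4 was called by DESeq2 or with 1% of the cytokine value taken off the controls. GBP5 also lost its call without culture A, without D and with GC content evened, and GBP2 without C.

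Series 22 controls held 3 reads or fewer of these genes, except for IFIT3 (3 reads in C and 21 in D). The size of the differences therefore depended on the pseudocount. With a pseudocount of 1 in place of 0.1 the difference was -1.92 for CXCL10, -1.62 for GBP1 and -2.09 for BST2, each still called. GBP3 was not called with a pseudocount of 1 (limma, adjusted p = 0.0938), and GBP5 and ICAM1 were called neither with 0.5 nor with 1. On the recovered counts the log2 difference was -6.75 (edgeR) and -6.94 (DESeq2) for CXCL10 and -6.17 and -6.28 for GBP1, sizes that rest on the same few reads. There were 7 genes with at most 3 reads in both series 22 controls and at least 20 CPM in every cytokine library, namely BST2, CXCL10, GBP1, GBP2, GBP3, GBP5 and ICAM1. Their control level was 0.171% to 0.800% of the cytokine level of the same culture in A and 0.157% to 1.03% in B, and at most 0.0238% in C and 0.0145% in D. With 1% of the cytokine value taken off each control value, an alternative chosen after seeing the data, CXCL10 (-0.77), GBP1 (-0.05) and BST2 (-0.99) were no longer called, and 41 genes in place of 56 had a smaller change in series 21. The origin of these reads was not tested.

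HLA-B had more control reads and the same direction. This class I gene, whose product presents peptides to T cells, stood at 4.53 and 7.11 CPM in control A and B against 2.33 and 1.82 CPM in C and D, and with cytokines at 1349 and 1370.3 against 2266 and 1620.0 CPM (change -1.92 ± 0.14). HLA-B is highly variable and resembles other class I genes, so that its reads are uncertain, and its call was lost with 1% of the cytokine value taken off (-0.49). CXCL9 was higher in series 21 in both treatments, at 21.02 and 24.3 against 3.72 and 4.69 CPM in controls and 3728 and 3636 against 1183 and 2276 CPM with cytokines. Its change was smaller by -1.24 ± 0.13, but it was 1.17 with 1% taken off. IRF1, the transcription factor named above, was called too (-0.60 ± 0.13), but not without culture B or C. WARS1 and B2M were not called. WARS1 went from 92.7 and 95.1 to 4408 and 4239 CPM in A and B and from 104 and 75.1 to 5064 and 4009 CPM in C and D, and the difference was -0.15 ± 0.11. It was -0.25 ± 0.11 for B2M, the light chain of class I.

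**Figure D5:**
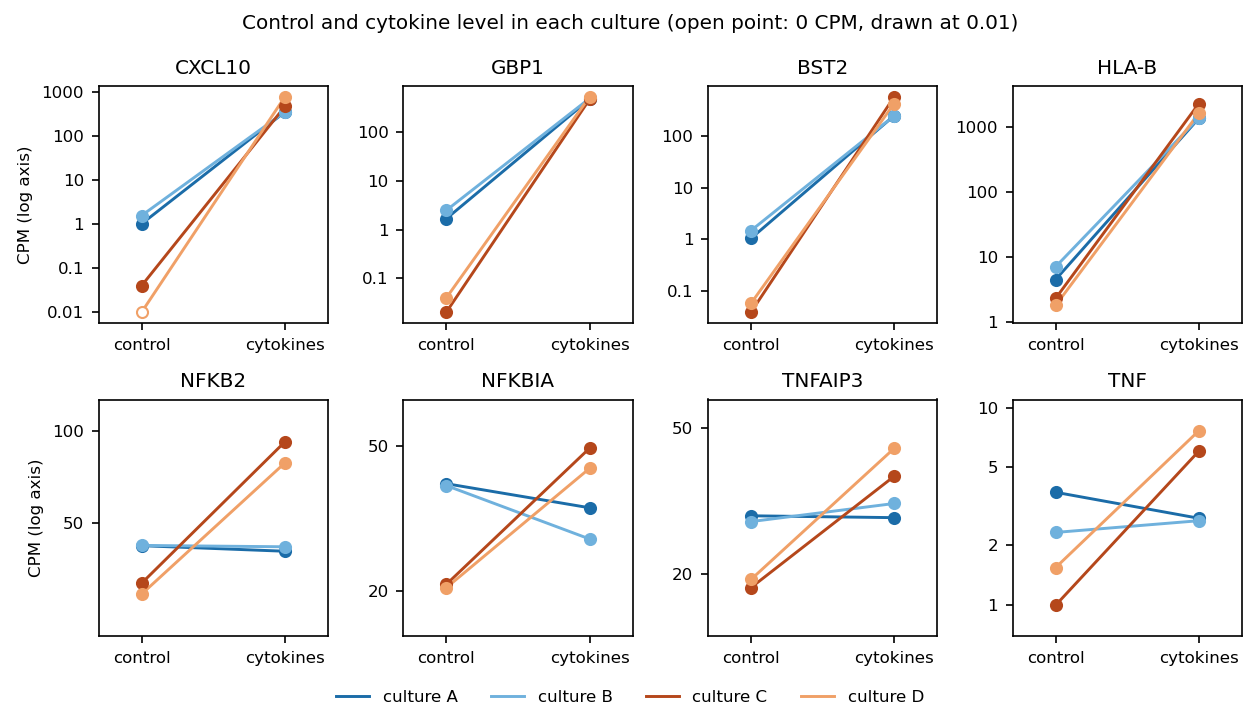
CPM (log axis, a separate scale in each panel) of 8 genes without and with cytokines, 1 line per culture, blue for series 21 and orange for series 22, with an open point at 0.01 for 0 CPM. In the upper row the lines start apart and meet at the cytokine level for GBP1; in the lower row those of series 21 move by less than 0.5 on the log2 scale while those of series 22 go up.

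In the NF-κB pathway the genes with a smaller change in series 21 included subunits of its alternative branch, its inhibitors and TNF. NFKB2, the precursor of p52 (chromosome 10, 102394110 to 102402529), stood at 42.2 CPM in both control libraries of series 21 and at 40.4 and 41.8 CPM with cytokines. In C and D it stood at 31.8 and 29.2 CPM without and 92.4 and 78.8 CPM with cytokines. Its change of -0.06 and -0.01 in A and B lay below that of 1.54 and 1.43 in C and D (-1.52 ± 0.14, limma, adjusted p = 9.97e-11), and its cytokine level was lower in series 21 (-1.05 ± 0.12, limma, adjusted p = 0.00239). RELB, its partner, reached 15.8 and 14.8 CPM in A and B against 38.3 and 30.9 CPM in C and D, from controls of 6.43 to 7.68 CPM in all (-1.23 ± 0.20).

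NFKBIA, which holds NF-κB in the cytoplasm (chromosome 14, 35401511 to 35404749), stood at 39.3 and 38.9 CPM in control A and B and at 33.8 and 27.8 CPM with cytokines. In C and D it stood at 20.9 and 20.5 CPM without and 49.2 and 43.3 CPM with cytokines. Series 21 was thus higher in controls (limma, 0.92 ± 0.14, adjusted p = 0.00318), lower with cytokines (-0.59 ± 0.14, adjusted p = 0.0234), and its change differed by -1.51 ± 0.15 (adjusted p = 2.45e-09). TNFAIP3, a deubiquitinase that ends the signal, followed with 28.9 and 27.9 against 18.4 and 19.4 CPM in controls and 28.6 and 31.2 against 37.0 and 44.1 CPM with cytokines (-1.02 ± 0.16). TNF itself stood at 3.72 and 2.33 against 0.995 and 1.54 CPM in controls and at 2.75 and 2.67 against 6.02 and 7.63 CPM with cytokines (-2.48 ± 0.34). Neither NFKB2 nor NFKBIA lost its call under any alternative except that without the intensity trend.

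NFKB1, RELA and SOD2 were not called, whereas ICAM1, an adhesion molecule, was (-1.59), a call that DESeq2 did not make. The change of NFKB1 differed by -0.21 ± 0.20, of RELA by -0.18 ± 0.13 and of SOD2, a mitochondrial superoxide dismutase, by 0.31 ± 0.14. None of the tested receptors and JAK-STAT genes was called, with differences between -1.04 and 0.27, and IFNGR1, the ligand-binding chain of the IFNγ receptor, differed by 0.05 ± 0.16. CXCL2 and CXCL8, chemokines of neutrophils with low levels, were called. CXCL2 reached 3.81 and 3.503 CPM in A and B and 11.5 and 20.8 CPM in C and D with cytokines, and CXCL8 1.66 and 0.470 against 7.89 and 8.60 CPM. For CXCL8, edgeR gave an adjusted p of 0.485.

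Among immediate early genes, which respond to stimuli within minutes and encode transcription factors for the most part, 7 of 22 had a smaller change in series 21. EGR1 stood at 35.5 and 27.4 against 16.9 and 12.1 CPM in controls and at 51.9 and 52.0 against 68.5 and 50.5 CPM with cytokines, so that its control libraries did not overlap while its cytokine libraries did (change -1.30 ± 0.15, limma, adjusted p = 1.23e-07). JUN, an AP-1 subunit, stood at 55.8 and 56.9 against 48.5 and 33.7 CPM in controls and 685 and 645 against 1158 and 684 CPM with cytokines (-0.90 ± 0.11). ATF3, a stress-induced factor, reached 104 and 107.3 CPM in A and B and 217 and 134 CPM in C and D (-1.04 ± 0.18), and JUNB and NR4A2 differed by -0.76 and -0.96. VGF, a granule peptide outside these lists, reached 274 and 252 CPM in A and B against 1104 and 428 CPM in C and D (-1.26 ± 0.14). VIM, the mesenchymal filament vimentin, reached 1.87 and 2.63 against 11.7 and 5.40 CPM (-2.16 ± 0.42).

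Of the 36 genes with a larger (more positive) change in series 21, 17 had a control level called lower in series 21 (14.1% of all genes). This direction too follows in part from how they were chosen. Of these 36, 30 had a positive change in series 21 against 19 in series 22. SULF1, an enzyme that trims heparan sulfate, stood at 2.84 and 4.15 CPM in control A and B against 15.0 and 14.7 CPM in C and D, and with cytokines at 3.34 and 2.95 against 4.37 and 4.56 CPM (1.59 ± 0.28, limma, adjusted p = 0.000402). FN1, fibronectin, went from 2.29 and 1.88 to 42.0 and 40.0 CPM in A and B and from 2.97 and 3.48 to 24.5 and 40.7 CPM in C and D (0.98 ± 0.22). LYPD6, AGT, CTHRC1 and KIF15, each at or below 10.3 CPM in every library, differed by 1.97, 1.65, 1.55 and 1.35. LYPD6 (edgeR, adjusted p = 0.068), AGT (0.145), KIF15 (0.121) and CTHRC1 (0.175) were not called by edgeR, and none of these nor FN1 was called under TMM scaling, while SULF1 was. The median GC content was 44.2% in the genes with a larger change in series 21 and 57.2% in those with a smaller one. With GC content evened 7 genes had a larger and 60 a smaller change in series 21, of which 7 and 50 were among the 36 and the 56.

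No gene of beta-cell identity was called for its cytokine change. The 20 transcription factors and the 29 tested genes for insulin processing and secretion had median differences of 0.05 against 0.11 over all genes. MAFA, an activator of insulin transcription, changed by -2.13 and -2.26 in A and B and by -2.33 and -2.34 in C and D (difference 0.13 ± 0.21). PDX1 changed by -0.72 and -0.80 against -0.87 and -0.75. IAPP changed by 0.98 and 0.87 against 0.91 and 0.94, although its level differed between the series. The change of SST differed by -0.30 ± 0.11 and that of GCG by -0.13 ± 0.27. GCG changed by -1.60 and -1.47 in A and B but by -2.44 in C and -0.35 in D. The cultures of series 22 thus lay on both sides of those of series 21, a spread that the ± 0.27 does not show.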

How the data were processed

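RNA from 4 control and 4 cytokine-treated samples of EndoC-βH5 cells was sequenced. Per the labels and methods, the authors aligned reads to GRCh38 with TopHat2 2.1.1, counted them on genes with HTSeq 0.9.1, filtered out genes that did not exceed 0.5 CPM in 4 or more samples, and gave the deposited table in CPM. The table holds 4 further columns of values, which were not used. Within a tolerance of 1e-06, 100% of the values used were whole multiples of 1 read, so read counts behind the deposited CPM were recovered for edgeR and DESeq2. A count of 0 allows up to 3 reads; this limit and the depth (36577438 to 40117636 reads on listed genes) cover counting error only.

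The series was taken from the column names. The main tests were R 4.3.3 with limma 3.58.1, an intensity trend and Benjamini-Hochberg adjustment, applied to log2(CPM + 0.1): treatment as covariate and culture as random block for the series difference over 16525 genes, a fit of 4 groups for the series within a treatment, and the 4 within-culture changes for the 14683 genes of at least 1 CPM. An exact permutation of 2 against 2 cultures cannot go below p = 0.333, so none was used. Each control and cytokine library of a prefix deviated together from its group mean (correlation across genes 0.574, 0.590, 0.797 and 0.741 in A to D). Within series 22 the C minus D difference of the controls correlated with that of the cytokine libraries by 0.773, and within series 21 that of A minus B by -0.0141, so that the prefix pairs A and B only through their series. Alternatives were TMM scaling, other pseudocounts and filters, no trend, other blocks, recovered counts in edgeR 4.0.16 or DESeq2 1.42.0, leaving out libraries, and 3 added after seeing the data (GC content evened in 20 bins, CPM over nuclear genes, control less 1% of the cytokine value). On simulated counts in which 200 genes differed by 1.5 on the log2 scale, the series test recovered 200 with 9 false calls among 16125 unchanged genes, and the change test 194 with 8 among 14484. In the simulation all genes had the same spread between cultures and the same count dispersion, without shifts by GC content or scaling. Without the intensity trend the change test recovered 196 there, whereas in the data it called 1 gene in place of 92. The rate of false calls in the data was therefore not measured.

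The members, the 27 gene lists and the tests were chosen with earlier results of these data known. Genes were named by rule, as the 10 largest called differences without overlap in each direction, for the series and for the cytokine change, and, from each list, the 3 members of highest CPM and the 2 of largest difference, beside genes that the study itself names. CHGB, UCN3, ISL1, HHEX, PYY, MDM2, FOXM1, HLA-B, NFKBIA, RELB, TNFAIP3, EGR1, ATF3, VGF and the remaining names were added after their values were seen. Coordinates, lengths and GC content are those of GENCODE 29 (GRCh38), which held 16167 of the genes, and promoters those of RefSeq. Some genes are not reported here. Python 3.11.15, pandas 2.3.3, numpy 2.4.6 and matplotlib 3.10.9 were used.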

Additional observations from a re-analysis of the deposited data

Results flagged for a closer look

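In culture D the share of reads outside the listed genes lay apart from that of the other 3 cultures in both treatments, at 26.6% in the control and 26.5% in the cytokine library. The same test, a gap to the nearest of 4 libraries that is large for the range, marked 15 levels of named genes. In such a test chance marks about 1 in 20 groups of libraries. In the control library of C, RPLP0 (928 CPM), CHGA (24930.0 CPM), PEG10, an imprinted gene (900.3 CPM), and JUND, an AP-1 subunit (196 CPM), stood above and FOXM1 (17.6 CPM) below the other controls. In the cytokine library of C, ATP5F1B (292 CPM), TTR (2782 CPM), HLA-E, a class I gene (4909.9 CPM), EGR1 (68.5 CPM), JUN (1158 CPM) and JUND (1129 CPM) stood above and FN1 (24.5 CPM) below. GC, a vitamin D-binding protein made by alpha cells, was low in the control library of D (63.4 CPM), CCNE2 was high in the cytokine library of D (6.25 CPM), and AGT was low in the control library of A (0.363 CPM).

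The cytokine change of 31 named genes differed between the series by the test of the difference itself (limma, FDR below 0.05). It was smaller in series 21 for the chemokines CXCL10 (-4.29), CXCL9 (-1.24), CXCL8 (-2.84) and CXCL2 (-2.72). It was smaller for the interferon targets GBP1 (-4.10), GBP2 (-2.45), GBP3 (-2.44), GBP5 (-1.69), BST2 (-4.17), IFIT3 (-2.36), HLA-B (-1.92) and IRF1 (-0.60). The same held for TNF (-2.48), NFKB2 (-1.52), NFKBIA (-1.51), RELB (-1.23), TNFAIP3 (-1.02) and ICAM1 (-1.59). It held for EGR1 (-1.30), NR4A2 (-0.96), JUN (-0.90), JUNB (-0.76), ATF3 (-1.04), VGF (-1.26) and VIM (-2.16). The change was larger (more positive) in series 21 for FN1 (0.98), SULF1 (1.59), LYPD6 (1.97), AGT (1.65), CTHRC1 (1.55) and KIF15 (1.35).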

How the results depend on the processing

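At an FDR below 0.05 alone, 4417 genes differed between the series in place of 2878. With GC content evened the count was 1726, and 1213 in place of 3033 for the control libraries. Without the intensity trend it was 1804 for the control libraries, 141 in place of 1494 for the cytokine libraries and 1 in place of 92 for the cytokine change. DESeq2 called 55 genes for the cytokine change. Leaving out 1 library at a time gave 68 to 3559 genes for the control libraries and 11 to 3070 for the cytokine libraries. Leaving out 1 culture gave 45 to 608 for the cytokine change. Apart from the block, the other alternatives kept these counts within 1.5 times. The cause was not tested.

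The direction of the calls moved with the scaling. Lower calls made up 69.6% of those between the series in deposited CPM and 47.9% under TMM scaling, 49.9% in edgeR and 45.4% in DESeq2. They made up 76.7% and 48.4% in the control libraries, and 60.9% and 89.3% for the cytokine change, in deposited CPM and under TMM scaling. TMM scaling moved the median of all genes from -0.18 to -0.02 in the control libraries and from 0.11 to -0.00084 for the cytokine change.

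Without the replicate block 3418 genes differed between the series, and with culture means as the block 2447. For the cytokine change 5 genes were called without pairing by culture. Among the 104 named genes, most of those called for the cytokine change lost their call without the block (26). Without the intensity trend all of them but GBP1 did (30).

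The difference of cytokine change of GCG ranged from -1.18 to 0.91 when 1 culture was left out, the latter without culture D. With 1% of the cytokine value taken off the controls, the differences of CXCL9 (1.17), GBP5 (0.14) and ICAM1 (0.088) changed sign. At the depth of these libraries 1 read is 0.0196 to 0.0214 CPM, so that control levels of 3 reads or fewer in cultures C and D set a limit only.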

Other observations

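Of 13 listed neuronal genes, some of which beta cells also express, 4 were called lower and SYN1 higher in series 21, and 2 lower and 3 higher with GC content evened. NEFM, a neurofilament subunit, stood at 295 to 451 CPM in series 21 and 583 to 963 CPM in series 22 (limma, -0.99 ± 0.19, adjusted p = 0.00176). GAP43, a growth cone protein, stood at 15.9 and 20.3 CPM in control A and B against 39.7 and 30.5 CPM in C and D, and with cytokines at 7.69 and 6.45 against 25.2 and 15.7 CPM (limma, -1.22 ± 0.20, adjusted p = 0.000697). NEFL was lower by -0.63 ± 0.17, while STMN2 (0.25) and ELAVL4 (0.15) were not called.

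Of 14 heat shock genes 6 were called lower and 1 higher, and of 20 genes of cholesterol synthesis 4 were called lower, against 12.1% of all genes called lower. Under TMM scaling the lower calls were 2 for heat shock and 4 for cholesterol synthesis, and with GC content evened 2 and 1. Of 20 imprinted genes 4 were called lower, DLK1 among them.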
